A study of Mus musculus with 19 samples.

Results

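Capillary endothelial cells line the exchange vessels of a tissue, and 1545 of 39541 cells (3.91%) met their definition in 19 single-cell libraries from the tenotomy site of mice. A droplet barcode was taken as a cell when it had UMIs (unique molecular identifiers, 1 per captured RNA molecule) for at least 500 genes and at most 25% of them from mitochondrial genes. A blood endothelial cell had a UMI of at least 3 of the 5 endothelial genes Pecam1, Cdh5, Kdr, Egfl7 and Cldn5, at most 1 UMI each of the leukocyte gene Ptprc and the fibroblast gene Pdgfra, and none of the lymphatic genes Prox1 and Mmrn1. Of the 2960 blood endothelial cells, those with more UMIs summed over Gpihbp1, Timp4, Rbp7 and Aqp7 than over Plvap, Selp, Ackr1, Lrg1 and Aplnr were counted as capillary, so the cells were chosen by the measured UMIs of these genes. The reverse held for 1344 cells, called venular here, and 71 cells were tied.

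The series followed heterotopic ossification, bone formed in soft tissue, after a partial-thickness dorsal burn combined with cutting of the Achilles tendon (burn/tenotomy). There were 4 libraries at day 0, which the study describes as taken before injury although the labels list the burn for every library, 3 at day 3, 4 at day 7 and 4 at day 21. A further 4 libraries (p7N3) came from mice given a CD47-activating peptide at 10 mg/kg into the peritoneum each day from 3 days before to 3 days after the injury. They were collected at day 7, although the label of p7N3 replicate 4 gives no day, and the study describes PBS-treated mice as the controls of the peptide, while the labels of the day 7 libraries used here name no such treatment. The labels name C57 mice and LysmCre/Tgfb1fx/fx mice, whose Cre is active in myeloid cells, without saying which libraries came from which, so genotype and group cannot be told apart. Tissue was digested with enzymes before capture on a 10x 3′ platform. The study describes its single-cell replicates as a measure of the variability between mice, while no label ties a library to an animal, so every p-value below measures the spread between libraries, part of which may be technical.

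Capillary endothelium of muscle and fat takes up lipid. GPIHBP1 carries lipoprotein lipase to the lumen, CD36 takes up the freed fatty acids, and FABP4 and FABP5 carry them inside the cell. In a wound, endothelial cells leave the resting state under VEGF and Notch signals, sprout as tip and stalk cells, divide, and later form resting capillaries again.

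The defining markers were detected in the chosen cells at every time, in shares that differed by gene. This describes the rule and is no test of it. Pecam1 was detected in 91.7% of the 961 capillary cells at day 0, 94.6% of 93 at day 7 and 96.5% of 397 at day 21. Gpihbp1 was detected in 97.9%, 98.9% and 96.2% of them. Timp4, an inhibitor of matrix metalloproteinases, was detected in 93.9% at day 0, 32.3% at day 7 and 86.4% at day 21. Rbp7 was detected in 48.6%, 35.5% and 49.9%, and Aqp7 in 80.65%, 61.3% and 84.6%. Plvap, which forms the diaphragms of fenestrated and activated vessels, was detected in 9.68%, 53.8% and 24.9%. Aplnr, also on the venular side of the rule, was detected in 43.5%, 63.4% and 52.1%. Thus the capillary cells of day 7 lay nearer to the boundary of the definition than those of day 0 or day 21. The median excess of the capillary sum over the venular sum ran from 18 to 23.5 UMIs among the day 0 libraries, from 5 to 10 at day 7, from 17 to 28 at day 21 and from 3 to 9 in p7N3. Over the day 7 libraries, 12 capillary cells exceeded by 1 UMI, 18 cells were tied and 11 venular cells fell short by 1. At day 0 the numbers were 11, 13 and 1.

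Genes outside the rule followed the same division in levels, again as a description. In the sums of capillary cells at day 0, Tcf15, a transcription factor of muscle and heart capillaries, averaged 1351 CPM (UMIs of the gene scaled to a common total per library), against 139 in venular cells and 37.6 in cells outside the endothelial gate. Car4, a carbonic anhydrase on the capillary surface, averaged 339, 31.8 and 5.99 CPM. Vwf, the clotting factor typical of veins, averaged 87.0 CPM in capillary cells and 617 in venular cells. Fabp4 separated endothelium from other cells more than it separated the classes, with 19390 CPM in capillary, 15380 in venular and 431 in other cells.

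Depth differed between the groups. Among the day 0 libraries the median capillary cell held between 2730 and 4078 UMIs, while at day 7 it held between 5267 and 8487, and at day 21 between 5270.5 and 8017.5. The 9 cells of day 3 were deeper still, with library medians from 10366 to 31598.5. A single cell supplied from 8.85% to 22.9% of the capillary UMIs of a day 7 library, but at most 2.42% at day 0 and 4.47% at day 21. In p7N3 replicates 2 to 4 a single cell supplied 31.95%, 11.8% and 18.4%. The summed UMIs of a library compared below were fewest at day 7 (123593 to 303944) and in p7N3 replicates 2 to 4 (142396 to 275744). They were more at day 21 (562212 to 937201) and most at day 0 (986214 to 1249823).

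The first comparison asked how much of the captured tissue was capillary endothelium. Capillary cells were 25.02%, 34.0%, 23.3% and 29.3% of all cells in the 4 day 0 libraries. They were 0.102%, 0.234% and 0.118% at day 3, 1.10%, 0.363%, 0.900% and 0.379% at day 7, and 6.96%, 13.5%, 11.6% and 2.97% at day 21. Every day 0 library was above every injured library, and the ranges of the 4 times did not overlap. The mean was 27.9% ± 4.77 (SD, n = 4) at day 0, 0.151% ± 0.0721 (n = 3) at day 3, 0.686% ± 0.373 (n = 4) at day 7 and 8.75% ± 4.73 (n = 4) at day 21. The day 7 mean was 40.7-fold and the day 21 mean 3.19-fold below day 0. Each of the comparisons of day 7 with day 0, day 21 with day 0 and day 21 with day 7 gave p = 0.0286 in an exact two-sided permutation test, the smallest value 4 against 4 libraries allow (adjusted p = 0.0476 over 5 comparisons). Day 3 was 184-fold below day 0, and its exact permutation p of 0.0571 is the smallest that 3 against 4 allow. The exact Clopper-Pearson 95% intervals, which cover counting error only, were 22.4 to 27.8% for day 0 replicate 1 and 0.773 to 1.52% for day 7 replicate 1. In a share, fewer capillary cells and more cells of other kinds cannot be told apart.

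**Figure D1:**
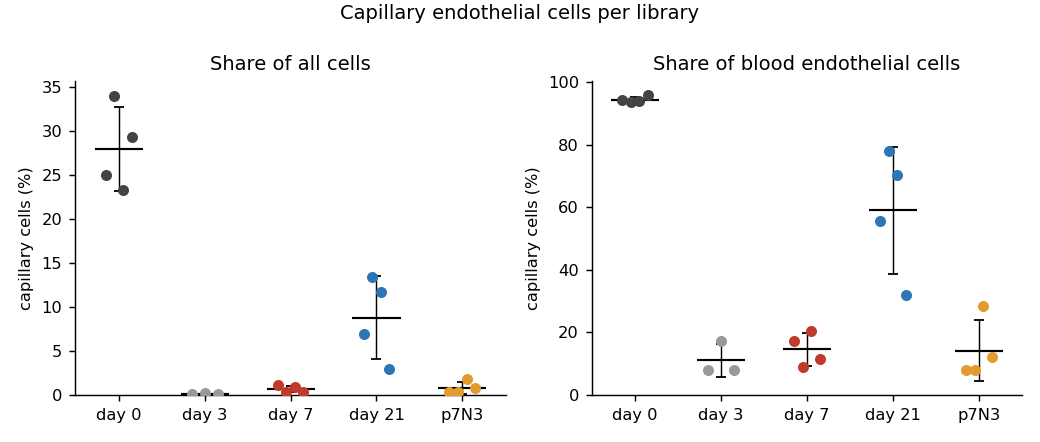
Capillary cells as a percent of all cells (left) and of blood endothelial cells (right), both on linear axes from 0, 1 point per library, with the group mean as a horizontal line and the SD as an error bar. Day 0 stands highest in both panels at a mean of 27.9% and 94.5%, days 3 and 7 and p7N3 lowest, and day 21 between them.

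Within blood endothelium the same order was seen. Capillary cells were 94.4%, 93.7%, 94.2% and 95.9% of blood endothelial cells at day 0. At day 7 they were 17.3%, 8.90%, 20.4% and 11.6%, and venular cells numbered 500 against 93. At day 21 the share was 55.7%, 78.2%, 70.5% and 31.9%, spread over a wider range than at any other time yet above every day 7 library and below every day 0 library. The exact permutation p was again 0.0286 for each of these comparisons (adjusted p = 0.0476). Day 3 stood at 8.00%, 17.2% and 8.00%. With every cell reduced to 1500 UMIs the mean share was 94.3%, 16.6% and 61.3% at days 0, 7 and 21, and the tests gave the same p-values. A cell kept its label only while its capillary genes outweighed the venular ones, so loss of capillary cells and a change of these genes within them cannot be told apart. The peptide made no detectable difference: the p7N3 libraries held 0.326%, 0.306%, 1.81% and 0.752% capillary cells, overlapping the day 7 libraries (exact permutation p = 0.886).

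Expression within capillary cells was compared over UMIs summed per library, for the 15 libraries with at least 10 capillary cells, so neither day 3 nor p7N3 replicate 1 entered. Of 7814 genes tested with edgeR's quasi-likelihood test, 1131 (14.5%) were higher and 1037 (13.3%) lower at day 7 than at day 0 at a Benjamini-Hochberg adjusted p under 0.05. Together they are 27.7% of the genes tested. At day 21 the counts against day 0 were 262 (3.35%) higher and 149 (1.91%) lower, together 5.26%. From day 7 to day 21, 451 (5.77%) rose and 471 (6.03%) fell, together 11.8%. Calls at day 7 rest on 93 cells and those at day 21 on 397. Leaving out any 1 library gave 1724 to 1969 genes at day 7 and 195 to 416 at day 21. For the latter, the count was 255, 195, 255 and 265 without day 0 replicates 1, 2, 3 and 4, 203 without day 21 replicate 1 and 205 without day 21 replicate 4. The day 7 and day 21 comparisons share their day 0 libraries.

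The lipid uptake genes were lower at day 7. Of 13 such genes tested, 8 fell, 1 rose and 4 did not pass, with a median log2 fold change of -0.99 against -0.02 over all genes tested. Of all genes, 13.3% fell and 14.5% rose at day 7. Fatty acid translocase Cd36 (chr5:17781690-17888801 in GRCm38, minus strand) stood at 2620, 2504, 2672 and 2813 CPM in the day 0 libraries, normalised by TMM as are all levels from here on. It stood at 1673, 571, 1317 and 864 at day 7 and at 1975, 2327, 2561 and 2089 at day 21. Every day 7 library lay below every library of day 0 and day 21, while day 21 lay partly within the range of day 0. The log2 fold change was -1.24 ± 0.268 (SE) at day 7 (adjusted p = 0.00161) and -0.24 ± 0.258 at day 21 (adjusted p = 0.66). Its rise from day 7 to day 21, by 0.99 ± 0.267 on the log2 scale, had an adjusted p of 0.0188 that reached 0.0561 on leaving out 1 library (day 21 replicate 3, day 7 replicate 2 or day 7 replicate 4 ended the call).

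Fabp4 (chr3:10204088-10208576, minus strand) was at 18270, 17940, 22110 and 21640 CPM at day 0, 10340, 3190, 12200 and 6015 at day 7, and 19000, 17190, 21490 and 19690 at day 21. The day 7 libraries stood below all those of day 0 and day 21, which overlapped each other. Its log2 fold change was -1.33 ± 0.273 at day 7 (adjusted p = 0.00102) and -0.05 ± 0.267 at day 21 (adjusted p = 0.955). Fabp5 fell by 0.99 at day 7, and Pparg, the nuclear receptor that drives several lipid genes, fell by 1.33. The caveolar proteins Cav1 and Cav2 fell by 0.56 and 1.06. At day 3, over 9 cells and with no test, Cd36 averaged 636 CPM and Fabp4 7715 CPM of all UMIs. Angptl4, an inhibitor of lipoprotein lipase, was the member that rose, from 55.0 to 151 CPM (adjusted p = 0.00349).

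Car4 and Lpl kept part of the day 7 difference. Car4 (chr11:84957786-84966044, plus strand) was at 346, 354, 335 and 362 CPM at day 0, 91.7, 16.3, 73.6 and 85.6 at day 7, and 169, 243, 270 and 155 at day 21. The 3 times did not overlap. Lpl, lipoprotein lipase itself, averaged 926 CPM at day 0, 135 at day 7 and 465 at day 21. The log2 fold changes from day 0 were -2.28 ± 0.269 (adjusted p = 3.42e-06) and -0.74 ± 0.194 (adjusted p = 0.0287) for Car4, and -2.67 ± 0.285 (adjusted p = 1.11e-06) and -0.99 ± 0.235 (adjusted p = 0.016) for Lpl. At day 21 both calls depended on single libraries. With 1 library left out the adjusted p ran from 0.0179 to 0.12 for Car4, which lost its call without any 1 of the day 0 libraries or without day 21 replicate 1 or 4, and from 0.0114 to 0.0682 for Lpl, which lost it without day 0 replicate 1, day 21 replicate 1 or day 21 replicate 4. Among 10 capillary genes outside the rule, 8 fell and none rose at day 7 (median log2 fold change -1.28), and Car4 alone passed at day 21. Of all genes, 13.3% fell at day 7 and 1.91% at day 21. Tcf15 (chr2:152143561-152149097, plus strand) went from 1158, 1523, 1289 and 1598 CPM at day 0 to 547, 155, 527 and 179 at day 7, and stood at 987, 932, 1169 and 711 at day 21. All day 7 libraries lay below those of day 21, which reached into the range of day 0. Meox2, its partner in lipid uptake, was 0.59 lower on the log2 scale at day 7 and did not pass (adjusted p = 0.114).

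**Figure D2:**
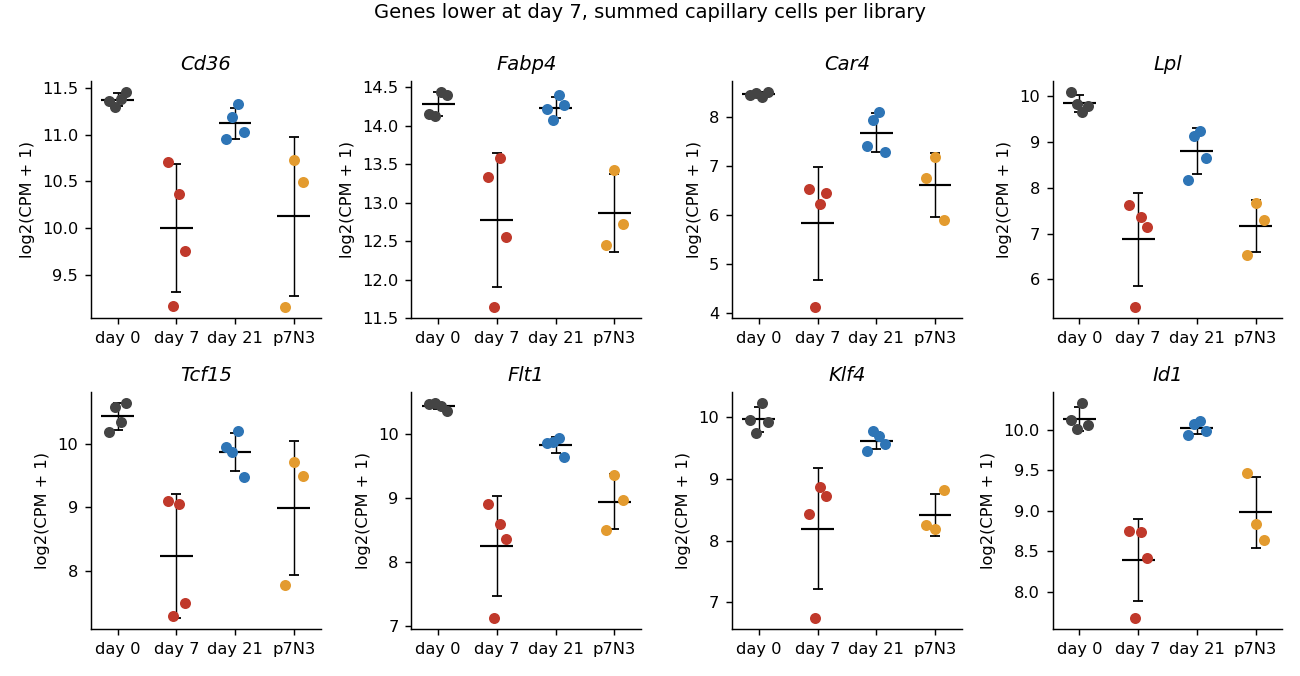
Levels of 8 genes lower at day 7 in capillary cells, as log2(CPM + 1) after TMM normalisation, 1 point per library (day 0, day 7 and day 21, 4 libraries each, and p7N3 replicates 2 to 4), with the mean as a line and the SD as an error bar. Cd36, Car4 and Tcf15 lie lower in all day 7 libraries than in any day 0 library.

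Receptors of vascular growth factors fell together at day 7. Of 9 VEGF and angiopoietin receptors and ligands tested, 7 fell, 1 rose and 1 did not pass (median log2 fold change -1.32). Of all genes, 13.3% fell and 14.5% rose at this time. Flt1, a VEGF receptor that also acts as a decoy (chr5:147561604-147726011, minus strand), was at 1416, 1436, 1394 and 1320 CPM at day 0, 480, 139, 387 and 327 at day 7 and 932, 940, 977 and 803 at day 21. No 2 of these groups overlapped. It fell by 2.00 ± 0.222 at day 7 (adjusted p = 1.84e-06) and was 0.61 lower at day 21, which did not pass (adjusted p = 0.0855). The co-receptor Nrp1 fell by 1.32 and the angiopoietin receptor Tek by 1.49. The ligand Pgf rose from 9.82 to 112 CPM. Vegfc, the ligand of Flt4, differed in direction between the times: its mean was 29.7 CPM at day 0, 7.50 at day 7 and 62.2 at day 21. It was 1.74 ± 0.522 lower on the log2 scale at day 7 (adjusted p = 0.0164) and 1.00 ± 0.239 higher at day 21 (adjusted p = 0.0169). The day 7 fall did not pass with the stricter gate, in which Ptprc, Pdgfra and the pericyte gene Rgs5 had to be at 0 (log2 fold change -2.50, adjusted p = 0.105), or with at least 20 cells per library (adjusted p = 0.111). The day 21 rise lost its call with the stricter gate (log2 fold change 1.16, adjusted p = 0.112) and without day 0 replicate 3, day 0 replicate 4 or day 21 replicate 4, with adjusted p from 0.00598 to 0.0717 over the libraries left out. The rise from day 7 to day 21 was 2.74 ± 0.475 (adjusted p = 0.000871).

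In the Notch pathway, which holds back sprouting, 6 of 11 genes fell and none rose at day 7 (median log2 fold change -0.75). Of all genes, 13.3% fell and 14.5% rose. The receptor Notch1 fell by 1.17 ± 0.186 (adjusted p = 8.97e-05), the ligand Dll4 by 0.75 and the target genes Hey1 and Hes1 by 1.36 and 0.93. At day 21 only Notch4 passed, at -0.62 ± 0.154 (adjusted p = 0.0201, and up to 0.0668 with 1 library left out). It lost the call without day 0 replicate 1, day 0 replicate 2 or day 21 replicate 2. The tip cell and sprouting genes moved mostly the other way at day 7, with 9 of 16 higher, 3 lower and a median of 1.11. The basement membrane linker Nid2 rose from 34.97 to 169 CPM and Fscn1, which bundles actin in protrusions, from 180 to 698. The chemokine receptor Cxcr4 rose from 31.9 to 98.9 CPM. Esm1, a standard tip cell marker, was at 18.5 CPM at day 0 and 49.4 at day 7 and did not pass (adjusted p = 0.182). At day 21 Cd34, a sialomucin of vessels, alone of these genes was called, and it lost its call without day 0 replicate 1, 2 or 3 or day 21 replicate 1 or 2 (adjusted p 0.0334 to 0.0894).

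BMP and TGF beta signalling genes were divided. Of 15 tested, 7 fell and 3 rose at day 7 (median log2 fold change -0.86), and none was called at day 21 against day 0 (median -0.01). Of all genes, 13.3% fell and 14.5% rose at day 7. The receptor Acvrl1 fell by 1.52 ± 0.159 (adjusted p = 8.74e-07), its co-receptor Eng by 1.31, and Bmpr2 by 1.11. Among the target genes, Id1 fell by 1.64, Id3 by 1.56 and the inhibitor Smad7 by 1.31. Id1 was at 1112, 1029, 1291 and 1069 CPM at day 0, 431, 204, 426 and 342 at day 7 and 981, 1073, 1103 and 1011 at day 21. The day 7 libraries were well below those of day 0 and day 21, which overlapped each other. The members that rose were the receptor Tgfbr2, from 71.3 to 210 CPM, the signal transducer Smad1, from 92.2 to 249, and the ligand Bmp2, from 6.45 to 55.0. With only the libraries of at least 20 cells, Bmp2 did not pass (adjusted p = 0.193).

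Of 13 genes of flow response and vascular tone, 8 fell and none rose at day 7 (median log2 fold change -0.81), and none passed at day 21. Of all genes, 13.3% fell and 14.5% rose at day 7. Klf2 and Klf4, the transcription factors induced by laminar flow, fell by 0.80 ± 0.207 (adjusted p = 0.00611) and 1.55 ± 0.242 (adjusted p = 7.74e-05), and Nos3, which makes nitric oxide, by 0.81 (adjusted p = 0.00555, and 0.0536 with the stricter gate). Of 12 junction and barrier genes, 4 fell and none rose (median -0.41). They were Jam2, Robo4, S1pr1 and Ptprb, the last a phosphatase of the VE-cadherin complex that went from 1167 to 235 CPM. At day 21 Ptprb stood at 742 CPM and was still called lower than at day 0 (log2 fold change -0.65, adjusted p = 0.031). It lost this call without day 0 replicate 1, 2 or 4 or day 21 replicate 1, 2 or 4 (adjusted p 0.0347 to 0.133). Of 18 endothelial transcription factors, 5 fell and none rose at day 7, while 27.7% of all genes were called. Among 11 arterial genes, 6 fell and 1 rose at day 7. At day 21, 3 of them (Fbln5, Mgp and Alpl) were higher than at day 0 and 8 were not called, where 3.35% of all genes were higher. The part of RNA from other cells in these 3 was not tested. Of 8 venous genes outside the rule, 3 rose and 1 fell at day 7.

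Of 13 leukocyte adhesion and chemokine genes, 5 rose and 3 fell at day 7 (median log2 fold change 0.07). Ccl2, which draws monocytes, went from 17.9 to 339 CPM, and Cxcl1, which draws neutrophils, from 57.7 to 244. The study reports expression of both chemokines in stromal cells of the injury site. The part of RNA from other cells in these rises was not tested. Cxcl12, the ligand of Cxcr4, fell from 2446 to 941 CPM and Podxl, a sialomucin of the luminal surface, from 638 to 192. The interferon-stimulated genes gave 6 lower and none higher of 21 at day 7 (median -0.55), and antigen presentation gave 2 lower of 13, where 13.3% of all genes tested were lower and 14.5% higher. Of 8 coagulation genes, 4 rose at day 7, and Thbd, thrombomodulin, which restrains clotting, fell by 1.75. Of 16 immediate early and heat shock genes, which digestion of tissue can also induce, 1 rose and 3 fell at day 7, a share near the 27.7% of all genes. At day 21, 3 rose and 1 fell against day 0, where 5.26% of all genes were called.

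**Figure D3:**
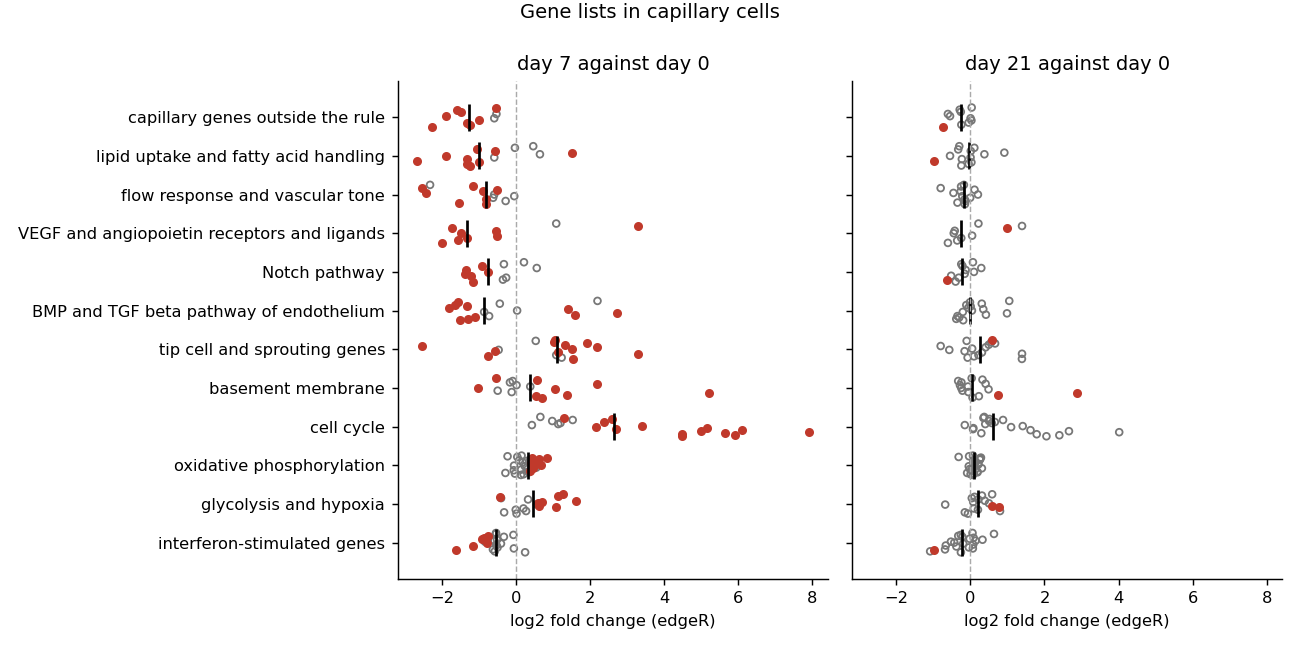
Log2 fold change against day 0 of each tested gene of 12 lists in capillary cells, 1 circle per gene, at day 7 (left) and day 21 (right), with called genes filled in red, other genes open, and the median of each list as a black line. The medians of the lipid, VEGF, Notch and flow lists lie below 0 at day 7 and closer to 0 at day 21, and the cell cycle median lies highest at day 7 at 2.64.

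Genes of the cell cycle were higher at day 7. Of 20 tested, 14 rose and none fell, with a median log2 fold change of 2.64, and none was called at day 21 against day 0 (median 0.62). Of all genes, 14.5% rose and 13.3% fell at day 7. Birc5, needed for chromosome separation, was at 0.827, 0.992, 0 and 1.75 CPM at day 0 and 81.2, 24.5, 77.5 and 125 at day 7. All 4 day 7 libraries were above all day 0 libraries. Ccnb2, a mitotic cyclin, had no UMI in the 961 day 0 cells and 41 at day 7, at least 72.8-fold higher when day 0 is set at a floor of 3 counts over the group. At least 3 of 9 mitotic genes were detected in 1 of 961 capillary cells at day 0, 10 of 93 at day 7 (10.8%) and 2 of 397 at day 21. These cells came from all 4 day 7 libraries, 3, 2, 3 and 2 of them in turn. With each cell reduced to 1500 UMIs the counts were 0 of 879, 6 of 93 and 0 of 397. In the same day 7 libraries 9.56% of cells outside the endothelial gate and 17.6% of venular cells met this criterion, or 3.04% and 20 of 500 after reduction to 1500 UMIs.

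The promoters of many mitotic genes carry CCAAT boxes, bound by NF-Y, and the cell cycle homology region TTTGAA. These 2 promoters, of the cyclin Ccnb2 and the kinase Cdk1, are shown because both genes rose at day 7 and both windows hold each motif. Capitals mark CCAAT and TTTGAA on either strand, so that ATTGG is CCAAT on the other strand. The windows run from 250 bases before to 50 after the RefSeq start of each gene, on the minus strand of GRCm38.p6, at chr9:70421505-70421804 and chr10:69352863-69353162.
Ccnb2: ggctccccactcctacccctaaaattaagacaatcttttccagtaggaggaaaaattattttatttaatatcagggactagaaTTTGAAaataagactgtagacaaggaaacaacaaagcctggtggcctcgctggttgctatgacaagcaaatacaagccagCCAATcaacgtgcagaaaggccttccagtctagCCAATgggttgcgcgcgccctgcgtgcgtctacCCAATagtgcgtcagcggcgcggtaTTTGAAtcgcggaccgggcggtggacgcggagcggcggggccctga
Cdk1: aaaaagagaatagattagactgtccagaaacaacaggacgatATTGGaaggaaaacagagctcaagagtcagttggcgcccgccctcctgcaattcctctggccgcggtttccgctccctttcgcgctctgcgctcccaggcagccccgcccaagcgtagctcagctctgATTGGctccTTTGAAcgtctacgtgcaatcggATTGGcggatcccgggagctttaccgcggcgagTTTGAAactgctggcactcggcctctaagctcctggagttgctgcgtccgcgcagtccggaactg
Of the 14 cell cycle genes that rose, 12 had a window in RefSeq, of which 10 held CCAAT, 7 held TTTGAA and 7 held both. Over all 32851 windows of this length, 37.4% held CCAAT, 17.9% TTTGAA and 6.95% both. These are shares of single windows, while the counts before them are of genes. A match describes the letters in the window and is not a bound site.

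Of 16 glycolysis and hypoxia genes, 7 rose and 1 fell at day 7 (median log2 fold change 0.44), among them Pkm, pyruvate kinase, from 228 to 723 CPM, and Hif1a, from 56.7 to 137. Of 30 oxidative phosphorylation genes, 10 rose and none fell, with a median of 0.32. Over all genes tested 14.5% rose and 13.3% fell. Of 15 basement membrane genes, 7 rose and 2 fell, and Col4a1, a chain of its main collagen, went from 1259 to 2034 CPM.

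Single genes with the largest differences were taken by a rule of size, among genes whose libraries did not overlap and whose level was at least 50% of that in cells outside the endothelial gate. Libraries did not overlap for 29.8% of genes tested at day 7 against day 0, 15.9% at day 21 against day 0 and 16.2% between day 7 and day 21, and for the comparisons with day 0, 25.2% and 3.57% were called with a level that high. The gene furthest up at day 7 was Chga, chromogranin A of secretory granules (chr12:102554969-102565028, plus strand). It had 0 UMIs in all 4 day 0 libraries and 84.7, 906, 105 and 389 CPM at day 7. At day 21 it was at 1.10, 0, 0 and 0 CPM, and in p7N3 replicates 2 to 4 at 63.7, 53.9 and 71.5. Chga was thus found in every day 7 library and next to nowhere at day 0 and day 21. Its 212 UMIs came from 14 of 93 cells, at least 376-fold above the floor of 3 counts over the day 0 group, where 0 of 961 cells, at a median of 3520 UMIs, had a UMI of it. That allows up to 0.312% of cells with a UMI and sets no limit on cells that express it. At day 7 it was also found in 47 of 500 venular cells and in 30 of 12649 cells outside the gate, whose median depths were 10489.5 and 7817 UMIs against 5758 in capillary cells.

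AA467197 (chr2:122636986-122641191, plus strand) rose by 6.21 ± 0.514 at day 7 and was still 2.89 ± 0.642 higher at day 21 (adjusted p = 0.0111). At day 7 it was in 36.6% of capillary cells, with a median of 5758 UMIs, in 55.0% of venular cells, with 10489.5, and in 10.1% of cells outside the gate, with 7817. After reduction to 1500 UMIs the capillary and venular shares were 18.3% and 19.2%. Col18a1, the collagen that yields endostatin (chr10:77052178-77166548, minus strand), was at 9.10, 7.93, 15.8 and 17.5 CPM at day 0, 438, 587, 511 and 342 at day 7 and 59.5, 62.7, 66.5 and 202 at day 21. The 3 times did not overlap, and day 21 replicate 4 stood above the other libraries of its group.

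**Figure D4:**
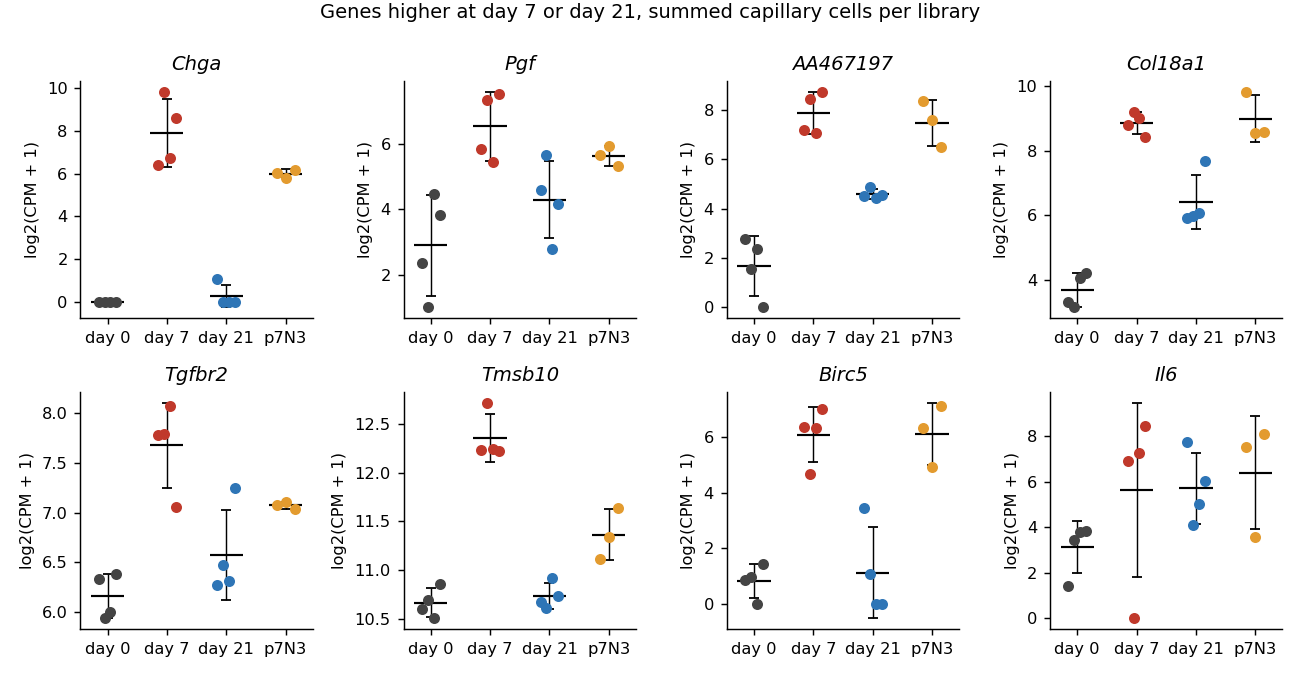
Levels of 8 genes higher at day 7 or day 21 in capillary cells, as log2(CPM + 1) after TMM normalisation, 1 point per library (p7N3 replicates 2 to 4), with the mean as a line and the SD as an error bar. Chga is at 0 in the 4 day 0 libraries, and Col18a1 at day 21 lies between day 0 and day 7.

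Among the genes furthest down at day 7 was Zbtb16, a zinc finger transcription factor that glucocorticoids induce (chr9:48654297-48836222, minus strand). It was at 81.1, 37.7, 57.8 and 43.8 CPM at day 0, 0, 0, 0 and 7.78 at day 7, and 22.1, 44.4, 41.4 and 18.9 at day 21. Its log2 fold change was -5.23 ± 0.821 at day 7 (adjusted p = 7.87e-05). The protease Klk8 fell by 4.04 ± 0.502 and the FGF receptor Fgfr3 by 3.26 ± 0.516. Both rose again to day 21, by 3.04 and 2.47. Coro6, Sh3d21, Ctif, Tmtc1 and Car3 completed the rule at day 7, with log2 fold changes of -3.53, -3.32, -3.09, -3.07 and -3.05. Zbtb16 was detected in 20.3% of capillary cells at day 0, 1.08% at day 7 and 19.1% at day 21, and in 18.0%, 1.36% and 6.66% of cells outside the gate. In venular cells the shares were 26.2%, 0.6% and 6.74%, so the low share at day 7 was seen in each class.

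Among the genes furthest up at day 21 against day 0, Upp1, Tmem252, Il6 and Clu were called higher at day 7 too. Upp1, uridine phosphorylase, was at 143 CPM at day 7 and rose from 10.4 to 51.4 CPM at day 21 (log2 fold change 2.27 ± 0.342, adjusted p = 0.000485) and the membrane protein Tmem252 rose from 12.9 to 58.8, with 131 at day 7. Tmem252 lost its call without day 0 replicate 2 or day 21 replicate 1 (adjusted p 0.00665 to 0.0546). Il6, the inflammatory cytokine, was at 1.66, 9.92, 12.6 and 13.1 CPM at day 0 and 214, 15.95, 31.0 and 64.1 at day 21. All day 21 libraries lay above day 0, with replicate 1 far above the other 3, and the day 7 libraries ran from 0 to 350.2 CPM. The log2 fold change was 3.18 ± 0.821 (adjusted p = 0.0248), and the call was lost without day 21 replicate 1 or any 1 of the day 0 libraries (adjusted p 0.0131 to 0.267 over the libraries left out, with a log2 fold change of 1.89 without day 21 replicate 1), with DESeq2 (adjusted p = 0.0879) and with the stricter gate (adjusted p = 0.057). Il6 was in 1.98% of capillary cells at day 0 and 17.2% at day 7. It was in 10.6% at day 21, at a median of 6045 UMIs, below the 45.3% of venular cells at 9588 and the 16.8% of cells outside the gate at 11193, so that expression by capillary cells and RNA from other cells cannot be told apart. Clu, an extracellular chaperone, was at 192 CPM at day 7. Its rise from 30.4 to 169 CPM at day 21 lost its call without day 0 replicate 1, day 0 replicate 2 or day 21 replicate 4 (adjusted p 0.00634 to 0.0875). Day 21 replicate 4 stood at 420.5 CPM against 53.5 to 123 in the others, and without it the log2 fold change went from 2.40 to 1.47. The co-activator Ncoa3 fell from 154 to 57.8 CPM and Palm, a membrane-bound protein, from 169 to 65.4.

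Transcripts typical of other cell types moved with the groups in the capillary sums. Over 10 fibroblast genes the summed level was 1194, 1109, 1371 and 1275 CPM in the day 0 libraries, 4925, 6940, 5800 and 1246 at day 7 and 4922, 5065, 1766 and 5829 at day 21. Day 7 replicate 4 lay within the range of day 0, and the other day 7 and day 21 libraries above it. The sums ran from 723.5 to 1662 CPM at day 3 and from 1010 to 5023 in p7N3. In cells outside the gate the same sum averaged 46090 CPM at day 0, 40260 at day 7 and 60500 at day 21. Of these 10 genes 7 rose and 1 (Gsn) fell at day 7, and 6 rose and 1 fell at day 21. Col1a1 went from 111 to 1611 CPM at day 7. The most abundant of the list was Gsn in the 4 day 0 libraries, and Col1a1 in 5 of the 8 libraries of day 7 and day 21, with Col3a1 in day 7 replicate 3 and day 21 replicate 4 and Col1a2 in day 21 replicate 3. Of 10 genes listed for mesenchymal transition, 4 rose at day 7 and 4 at day 21. Over all genes tested, 14.5% rose and 13.3% fell at day 7, and 3.35% and 1.91% at day 21. Vim, Fn1 and Postn, which fibroblasts also express, rose at both times; the part of fibroblast RNA in this was not tested.

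All 6 tested genes of tendon and cartilage rose at day 21, and 2 rose at day 7, where 3.35% and 14.5% of all genes rose. Their sum was at most 41.0 CPM in a day 0 library and between 105 and 436 at day 21, against a mean of 4741 in the day 21 cells outside the gate. The neutrophil genes S100a8 and S100a9 rose at day 7, where their list summed to between 54.0 and 579 CPM, and neither passed with the stricter gate, where their log2 fold changes went from 4.94 to 2.45 and from 4.81 to 2.95 (adjusted p = 0.0664 and 0.0815). With 1 library left out both kept their calls, at 4.09 to 5.82 for S100a8 and 3.39 to 5.39 for S100a9. Of 5 skeletal muscle genes 3 fell at day 7 and 4 at day 21. None of 10 pericyte genes and none of 5 erythrocyte genes was called, although the sum of the erythrocyte genes ran from 8296 to 21810 CPM at day 0, and from 105 to 32060 at day 7, where replicate 2 was highest. The adipocyte genes summed to between 15.6 and 31.4 CPM at day 0 and to at most 6.58 at day 7, and none passed the filter. Of 8 macrophage genes, 1 rose and 1 fell at day 7, near the 27.7% of all genes called, and of 3 lymphatic genes 2 rose and 1 fell. No lymphocyte or keratinocyte gene passed the filter. The part of these other cells in the day 7 and day 21 differences was not tested.

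**Figure D5:**
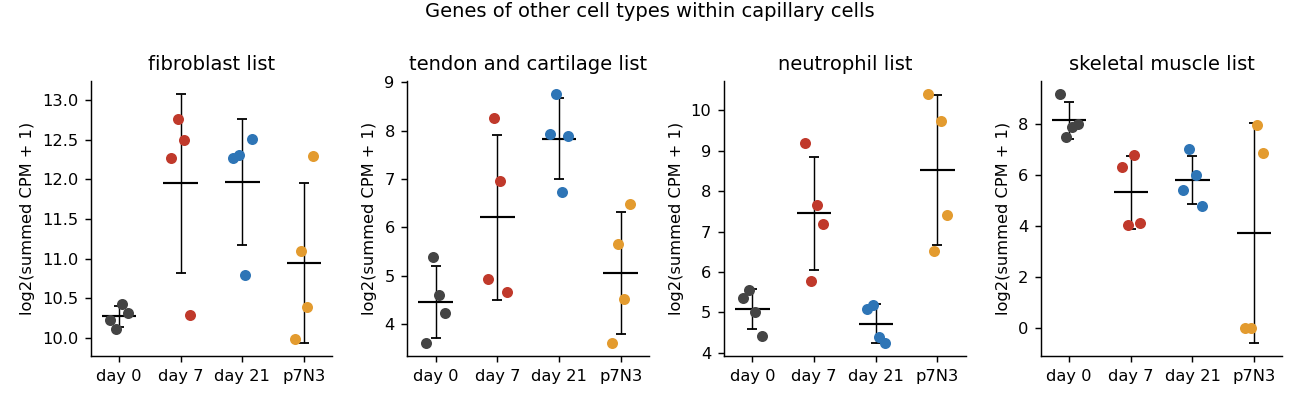
Summed level of the genes of 4 lists of other cell types within capillary cells, as log2(summed CPM + 1), 1 point per library by group, with the mean as a line and the SD as an error bar. Fibroblast genes, at 1109 to 1371 CPM at day 0, lie above that range in all but 1 library of day 7 and in all of day 21.

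The peptide was compared with the day 7 libraries, whose labels name no PBS treatment, over replicates 2 to 4 of p7N3. These held 11, 46 and 19 capillary cells. Of 7814 genes 2 passed (0.0256%), 1 in each direction (0.0128%), and 708 had an unadjusted p under 0.05. The count was 95 with DESeq2, 123 with no filter on low counts, 33 with the stricter gate and 0 with only these 2 groups fitted. Tmsb10, which binds actin monomers (chr6:72957347-72958748, minus strand), was at 2221, 2589 and 3180 CPM in p7N3 and 4820, 6747, 4854 and 4770 at day 7. The groups did not overlap, as was so for 6.39% of genes tested, and p7N3 stood between day 7 and the 1456 to 1859 CPM of day 0. The log2 fold change was -0.99 ± 0.159 (adjusted p = 0.0148). The call was lost without day 7 replicate 2 or p7N3 replicate 2 (adjusted p 0.00788 to 0.0986), with the stricter gate (log2 fold change -0.74, adjusted p = 0.0699), with the 2 groups fitted alone (adjusted p = 0.725) and over all blood endothelial cells (adjusted p = 0.994). Ctss, a protease of macrophages, was higher, at 269, 396 and 58.5 CPM against 7.06, 16.3, 31.0 and 31.1 (log2 fold change 3.64 ± 0.566, adjusted p = 0.0148). It lost its call without day 7 replicate 1, day 7 replicate 2 or p7N3 replicate 3 (adjusted p up to 0.0677), and over all blood endothelial cells (adjusted p = 0.974). In the same libraries the 11 macrophage genes summed to 1692, 3108 and 449.9 CPM in p7N3 and to 293 to 556 at day 7. The sum of p7N3 replicate 4 thus lay within the day 7 range, and the part of macrophage RNA was not tested. None of the other lists had a gene called. Cd36 stood at 566, 1697 and 1444 CPM in p7N3, across the range of day 7, with a log2 fold change of 0.15 ± 0.292 (adjusted p = 0.929). The log2 fold change was -0.03 ± 0.291 for Fabp4 and 0.10 ± 0.361 for Lpl, and neither passed (adjusted p = 0.993 and 0.971). Chga was lower in each of these 3 libraries than in any day 7 library, with a log2 fold change of -2.38 ± 0.703, and did not pass (adjusted p = 0.269).

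A further comparison asked whether capillary and venular cells changed alike, as the difference of their changes in 9795 genes. It used day 0 replicates 1 to 3, in which only 10 to 13 venular cells were present. From day 0 to day 7, 58 genes (0.592%) changed more upward in capillary cells and 77 (0.786%) more downward. The total of 135 (1.38%) became 54 without day 0 replicate 3 and 87 without day 7 replicate 3. The median of this difference over all genes was -0.36 under TMM and -0.05 under RLE size factors, which gave 84 and 21, and 79 genes were called the same way under both, 58 upward and 21 downward. The 135 include 4 genes of the definition and the 79 include 3 (Cldn5, Lrg1 and Plvap), whose levels set the class of a cell and are no finding. Eng, which is not a gene of the definition, was among the 79. It went from 848 to 315 CPM in capillary cells and from 516 to 697 in venular cells, a difference of -1.87 ± 0.226 (adjusted p = 7.56e-05) that was -1.55 under RLE. Egr1, an immediate early gene, was at 276 and 257 CPM in capillary cells but at 782 and 142 in venular cells, a difference of 2.25 ± 0.313 (adjusted p = 0.000543). Fos, Jun, Junb, Zfp36, Nr4a1 and Atf3 gave differences of 1.52, 1.25, 1.40, 2.48, 2.95 and 2.34 in the same direction. At day 21, 14 genes (0.143%) differed, 2 upward (0.0204%) and 12 downward (0.123%), or 5 in all under RLE. For the peptide no gene differed in the quasi-likelihood test (0.0%), with 630 at an unadjusted p under 0.05 and 8 called by DESeq2.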

How the data were processed

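The authors deposited 1 gene by barcode matrix of UMI counts per library, whole numbers and not normalised, made with Cell Ranger. The study's methods name the mouse genome mm10, while the labels list GRCh38 for 15 libraries. The matrices hold 27998 genes. The matrix of day 0 replicate 1 holds 737280 barcodes and the others 614 to 3786, so cells were taken by the filter on genes and mitochondrial UMIs, which left 571 to 3668 cells and 3019467 to 39870492 UMIs per library. The endothelial genes alone marked 3439 cells, of which 128 were removed for Ptprc or Pdgfra and 351 for Prox1 or Mmrn1. No doublet caller was run. Over all pairs of libraries 3 capillary barcodes were shared.

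UMI counts were summed per library over capillary cells where at least 10 were present, filtered with filterByExpr, scaled with TMM and tested in 1 fit of all groups with edgeR 4.0.16 (quasi-likelihood, limma 3.58.1, R 4.3.3), with Benjamini-Hochberg adjustment over all genes. Differences between capillary and venular changes came from a fit of both classes with library as a block. Shares were compared with exact permutation tests (scipy 1.17.1, numpy 2.4.6, pandas 2.3.3, Python 3.11.15). On simulated counts for 7814 genes, 35% of 2-fold changes were recovered for day 7 against day 0, 67% for day 21 against day 0 and 19% for the peptide. In the same order, 5 of 75 calls, 16 of 150 and 2 of 40 were false, at an adjusted p under 0.05. Floors of 3 counts and 95% intervals cover counting error only.

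Beside the members of 33 gene lists, in each comparison and direction the 8 genes with the largest change were named, among those with adjusted p under 0.05, CPM that did not overlap, a mean of at least 20 CPM in the higher group and at least 50% of the level in cells outside the gate. Rule genes, marker genes of other cells and mitochondrial, ribosomal and unnamed genes were left out of that choice. A few genes of the lists and of this rule are not reported here. The definition of the cells and the lists were chosen with earlier results of these data known. Gene positions come from GENCODE vM21 (GRCm38) and promoters from RefSeq (GRCm38.p6).

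The alternatives were RLE factors, DESeq2 1.42.0, no filter on low counts, each library left out, the replicate number as a block, only the 2 groups compared, all blood endothelial cells, a stricter gate with Ptprc, Pdgfra and the pericyte gene Rgs5 at 0, at most 10% mitochondrial UMIs, at least 20 cells per library and cells reduced to 1500 UMIs.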

Additional observations from a re-analysis of the deposited data

Results flagged for a closer look

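Of 103 groups of 4 libraries checked for a library that stands apart (chance gives about 1 in 20), 2 had one. Col18a1 reached 201.8 CPM in day 21 replicate 4, against 59.5 to 66.5 in the other 3 libraries. Tmsb10 reached 6747 CPM in day 7 replicate 2, against 4770 to 4854.

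A change from day 0 to day 7 differed between capillary and venular cells, by the quasi-likelihood test of the difference itself, in 23 of 351 listed genes tested, against 1.38% of all genes. The 17 that were called in the same direction with RLE factors too are given here. The difference is the log2 change in capillary cells minus that in venular cells, on TMM scaling. Of 16 immediate early and heat shock genes 9 are among them, with 2.337 for Atf3, 2.247 for Egr1, 1.519 for Fos, 2.241 for Fosb, 2.194 for Ier3, 1.254 for Jun, 1.399 for Junb, 2.948 for Nr4a1 and 2.477 for Zfp36. Venular levels of Egr1, Zfp36, Atf3 and Nr4a1 at day 0, which rest on 10 to 13 cells per library, were higher than at day 7, while capillary levels were 276 and 257 CPM for Egr1. The difference was -1.87 for Eng, -1.612 for Col4a1 and -1.261 for Cav1, and 1.322 for Il6st, a cytokine receptor chain.

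Tmem252, higher in venular cells at every time, gave 3.521, and the arterial gene Stmn2 gave -3.485. Pdpn, of lymphatic vessels and fibroblasts, gave 6.338. Its venular level ran from 0 to 231 CPM over the 3 day 0 libraries and averaged 5.33 at day 7. Its capillary level averaged 2.88 CPM at day 0 and 25.8 at day 7. The myelin gene Mbp gave 6.48, which was carried by 1 cell of day 7 replicate 1.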

How the results depend on the processing

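The direction of every named gene result to which RLE factors or DESeq2 gave a value was kept, and with RLE factors 330 of 332 capillary results kept their side of the threshold, with DESeq2 307 of 331, with the stricter gate 248 of 323, with at least 20 cells per library 277 of 323, and over all fits with 1 library left out 2200 of 2609. Of 26 named differences between capillary and venular changes, 17 kept their side with RLE factors and 18 with DESeq2, as did 124 of 182 values with 1 library left out. Over all blood endothelial cells, which pool venular cells with the capillary ones, 5763 genes differed at day 7 and 2871 at day 21 from day 0, 3374 between them and 0 for the peptide. At day 21 against day 0 the count of 411 became 764 with at least 20 cells per library, 771 with no filter and 743 with only the 2 groups fitted. For the peptide it was 95 with DESeq2, 123 with no filter, 0 with only the 2 groups and 33 with the stricter gate, and at least 20 cells per library left no peptide comparison. The count of genes whose change differed between capillary and venular cells was 371 with no filter at day 7, 5 with RLE and 99 with no filter at day 21, and 8 with DESeq2 and 63 with no filter for the peptide. The cause of these moves was not tested.

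With 1 library left out, the counts ran from 1724 to 1969 (day 7), 195 to 416 (day 21), 596 to 935 (day 21 against day 7, lowest without day 7 replicate 3) and 0 to 12 (peptide: 0 without day 7 replicate 2, 12 and 11 without p7N3 replicates 3 and 4). The counts of differing change ran from 54 to 125, 2 to 18 (2 without day 21 replicate 1, 6 without day 0 replicate 3, 9 without day 21 replicate 3) and 0 to 13 (13 without p7N3 replicate 4). Shares of all cells differed by -28.8 to -25.2 percentage points (day 7 minus day 0), -20.7 to -17.1 (day 21 minus day 0), 6.50 to 10.0 (day 21 minus day 7) and -0.225 to 0.277 (peptide, below 0 without p7N3 replicate 3). Shares of blood endothelium differed by -81.9 to -78.1, -41.8 to -26.4, 38.2 to 53.6 and -5.15 to 1.68 in the same order, and the stricter gate gave 0.162 for the peptide. With 3 against 4 libraries these tests cannot pass 0.05.

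Nearly all UMIs of Mbp at day 7 came from 1 cell of replicate 1. From day 7 to day 21 Mbp turned from lower to higher over all blood endothelial cells (0.115), with the stricter gate (4.24) and without that library (5.51, and -4.07 at the lowest without others), and its difference from venular cells ran from -2.35 without that library to 7.43. Over all blood endothelial cells Calcrl (0.249) and Stmn2 (0.13) turned to higher at day 7.

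With the replicate number as a block the counts were 2006, 371, 800 and 5 in the order day 7, day 21, day 21 against day 7 and peptide. Deviations of libraries with the same number did not run together, so the numbers are taken as names and not as pairs. Depth limits day 7 and p7N3, where 11 to 46 cells make a library in the fits, and day 3, whose 2 to 5 cells per library allowed no test of genes.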
